A study of Mus musculus with 6 samples.

Results

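The vascular endothelial growth factor (VEGF) family was described in cultured mouse ovary through 9 genes, taken by symbol from a deposited table of 26329 genes: the ligand genes Vegfa, Vegfb, Vegfc and Pgf, the tyrosine kinase receptor genes Flt1, Kdr and Flt4, and the co-receptor genes Nrp1 and Nrp2. All 9 were found, and all 9 had a mean of at least 1 FPKM (fragments per kilobase of gene length, corrected for library size), as did 12922 genes in all. RNA sequencing covered 3 libraries of ovaries cultured with ISRIB dissolved in DMSO and 3 Control libraries of ovaries cultured with DMSO. ISRIB is a small molecule that holds eIF2B active, so that protein synthesis goes on when the integrated stress response (ISR) would slow it, and the study, by its title, is about this response, the activation of primordial follicles and mTOR. The sources used here do not state the dose, the length of culture or the age and strain of the ovaries, nor whether replicates came from separate animals or cultures, so the errors below measure the spread between libraries. The members were chosen by symbol with earlier results of the same contrast known. The values they were chosen on were log2 differences and p-values between ISRIB and Control: Vegfa had one of the smallest p-values among genes higher in ISRIB and Kdr was among the lower endothelial genes. Differences of the 9 genes between ISRIB and Control are therefore given as a description, with no test.

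Worked back from the FPKM, the libraries held 34474821 to 38002135 reads. Markers of the ovary were present in all of them, among them 12 of 12 oocyte markers and 11 of 12 granulosa markers with a mean of at least 1 FPKM. ISRIB replicate 1 stood apart from the other libraries. Its red cell genes summed to 328 FPKM, against 40.5 to 75.9 in the other 5 libraries, and its immediate early genes, which respond to handling, summed to 618 FPKM, against 186 to 393. Its endothelial markers summed to 433 FPKM, against 490.2 to 535. Without this library the log2 difference was 0.72 for Vegfa, −0.21 for Kdr and between −0.18 and 0.17 for the other members, and it is given again where it changes a result.

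VEGF-A is the main growth factor of blood vessels. It binds VEGFR1 (coded by Flt1) and VEGFR2 (coded by Kdr); VEGFR2 carries most of the signal for endothelial growth, and VEGFR1, which also exists as a secreted form, holds ligand with high affinity. VEGF-B and placental growth factor (Pgf) bind VEGFR1, VEGF-C acts through VEGFR3 (Flt4) on lymphatic vessels, and neuropilins present VEGF to the receptors and also bind class 3 semaphorins. In the ovary, granulosa and theca cells of growing follicles are known to make VEGF-A, and the vessels around the follicle carry the receptors.

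Vegfa was the most abundant member and was higher in ISRIB, by 1.62-fold in mean FPKM. Kdr was lower in ISRIB, at 0.855 of its Control level. These were the 2 members whose ISRIB and Control libraries did not overlap, of 9, a share close to the 22.8% of all tested genes that did not overlap. Without ISRIB replicate 1 the count was 5 of 9, beside 37.9% of all genes. It was also 5 without Control replicate 2 (30.3% of all genes) and after rescaling each library to the same FPKM sum (TPM rescaling, 26.5%). The other 7 members overlapped between the groups, with differences of at most 0.19 in size on the log2(FPKM + 0.5) scale. All 5 receptors and co-receptors had a lower mean in ISRIB, as had Vegfc and Pgf. Over all genes tested, 0 of 12922 (0%) had an adjusted p under 0.05 in limma with Benjamini-Hochberg adjustment, while 2125 (16.4%) had an unadjusted p under 0.05 and 120 passed with limma's voom on reads worked back from the FPKM.

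The promoters of Vegfa and Kdr are shown because these genes differed in opposite directions without overlap. Each sequence is the 250 bases before the transcription start in RefSeq (GRCm38.p6), both on the minus strand, at chr17:46032378-46032627 for Vegfa (the outer of its listed starts) and chr5:75978456-75978705 for Kdr. Capitals mark matches, on either strand, to the GC box GGGCGG and to the core letters ACGTG or GCGTG that hypoxia-inducible factors (HIF) bind.
Vegfa: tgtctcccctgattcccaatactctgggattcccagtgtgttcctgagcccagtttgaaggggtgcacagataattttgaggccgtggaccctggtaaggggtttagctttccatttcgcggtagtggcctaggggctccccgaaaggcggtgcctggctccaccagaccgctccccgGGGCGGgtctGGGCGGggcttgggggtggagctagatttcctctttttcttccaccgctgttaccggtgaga
Kdr: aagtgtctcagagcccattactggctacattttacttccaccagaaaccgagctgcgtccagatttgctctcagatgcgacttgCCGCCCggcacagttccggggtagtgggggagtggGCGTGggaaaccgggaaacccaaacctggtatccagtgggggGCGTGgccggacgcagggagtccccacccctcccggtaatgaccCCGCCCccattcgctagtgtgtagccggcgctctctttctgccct
The Vegfa window held 2 GC boxes, which begin 72 and 62 bases before the start, and 0 HIF core matches. Sites farther than 250 bases from a start were not searched, so a count of 0 holds for the window only. The window of the other listed Vegfa start, at chr17:46025164-46025413, held 1 ACGTG at 211 bases, 1 GCGTG at 218 bases and 1 GC box at 158 bases. That window lies inside the Vegfa gene, downstream of the outer start, so its matches fall within the transcribed region. The bases stored after this inner start were not found in any GENCODE M21 transcript of Vegfa, so the start itself is uncertain. The Kdr window held 2 GC boxes, at 166 and 45 bases, and 2 GCGTG matches, at 131 and 89 bases. No 2 matches overlapped in the printed windows. Of 32851 promoter windows of this length in the table, 32.7% held a GC box, 16.6% ACGTG and 28.2% GCGTG, so each of these letter strings is common. None of these windows held TGATGNAA, an element that the ISR factor ATF4 binds, which 3.45% of the windows held. These matches describe letters in a window and say nothing on whether a factor was bound.

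Among the ligands, Vegfa (chromosome 17, 46016993 to 46032369, minus strand, GRCm38) measured 129, 127 and 150.2 FPKM in the 3 ISRIB libraries, against 86.9, 75.5 and 88.8 FPKM in the 3 Control libraries. Every ISRIB library lay above every Control library, with ISRIB replicate 3 the highest of all. The mean was 135 ± 12.8 FPKM in ISRIB and 83.7 ± 7.21 FPKM in Control (SD, n = 3 each), a log2 difference of 0.69 (SE 0.0826), and 35 of the 12922 tested genes had a larger positive difference. Leaving out any 1 library gave differences of 0.61 to 0.74, and removing the trend of expression differences with gene length gave 0.70. Between 12096 and 22643 reads stood behind each value, for a counting error of 0.909% in the thinnest library, below the spread between replicates of 9.47% in ISRIB and 8.61% in Control. The gene-level value adds up all splice forms of Vegfa, which differ in how firmly they bind matrix.

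Vegfb, which codes for a ligand of VEGFR1, was the second most abundant member. It had 49.2, 52.9 and 55.4 FPKM in ISRIB, against 49.3, 45.1 and 49.6 FPKM in Control. The lowest ISRIB library lay within the Control range and the other two above it, with a log2 difference of 0.13 (95% interval −0.01 to 0.26), 0.08 without Control replicate 2, and 0.05 once the gene length trend was removed. Pgf, the placental growth factor, had 21.2, 26.0 and 24.8 FPKM in ISRIB, against 26.1, 21.5 and 27.4 FPKM in Control. Its groups overlapped throughout. Its log2 difference of −0.06 (95% interval −0.30 to 0.19) ranged from −0.16 to 0.03 when single libraries were left out, so it had no stable direction. Vegfc, the lymphatic ligand, was scarce, with 2.40, 2.42 and 2.84 FPKM in ISRIB, against 3.02, 2.33 and 3.59 FPKM in Control. Its log2 difference was −0.17 (95% interval −0.50 to 0.15), and it was −0.32 without Control replicate 2 and −0.05 without Control replicate 3. The thinnest library held 164 Vegfc reads, a counting error of 7.81%, and the replicates varied by 9.75% in ISRIB and 21.3% in Control. Vegfd, the remaining VEGF ligand of the mouse, is not among the 9 genes. It measured 1.53, 1.76 and 1.93 FPKM in ISRIB, against 1.08, 1.66 and 1.39 FPKM in Control, with overlapping groups and a log2 difference of 0.26 (95% interval −0.06 to 0.59).

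**Figure D1:**
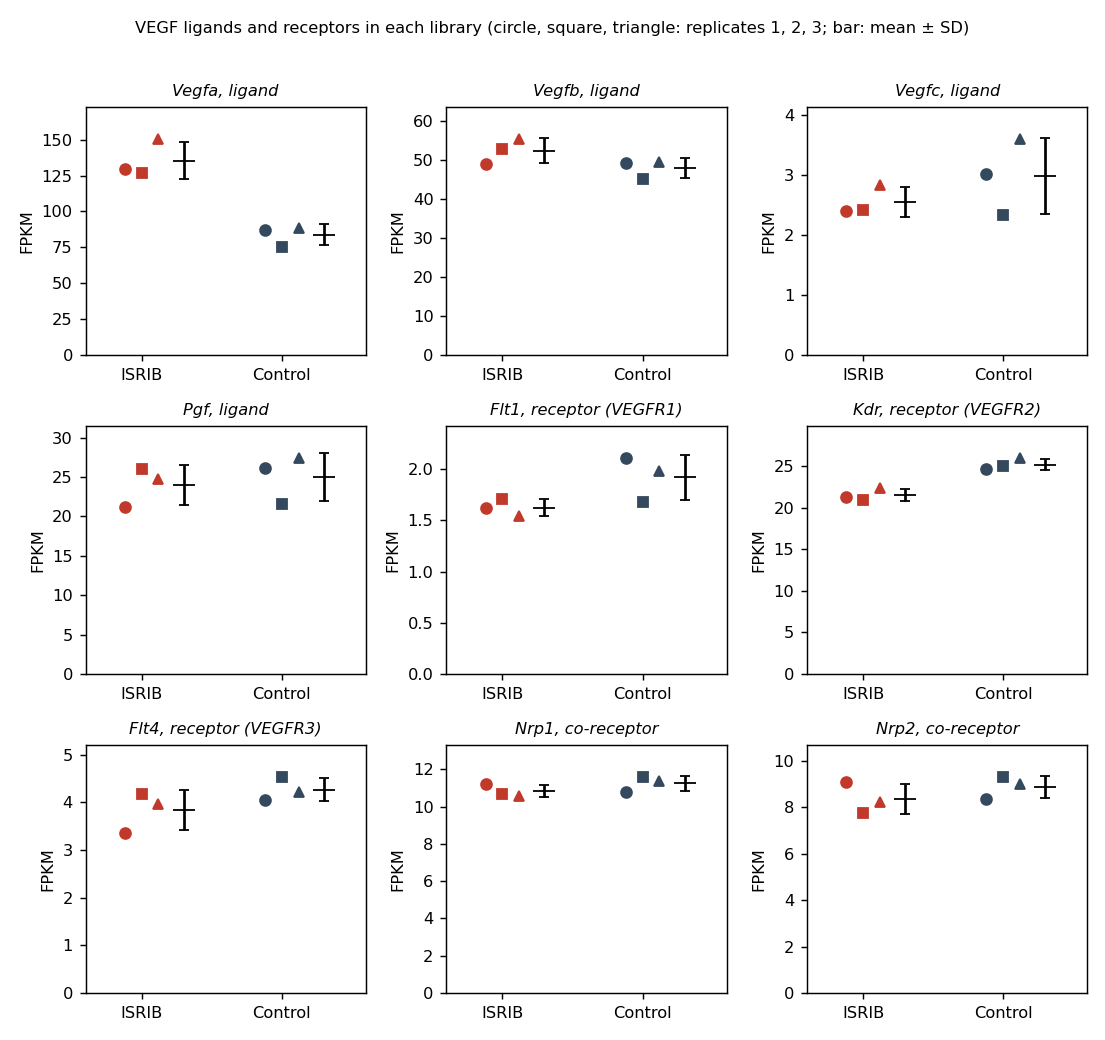
FPKM (vertical axis, from 0) of each ligand and receptor gene in the 3 ISRIB and 3 Control libraries. Points are libraries and bars are means ± SD. Vegfa lies at 127 to 150.2 FPKM in ISRIB and 75.5 to 88.8 in Control, Kdr at 20.9 to 22.4 in ISRIB and 24.6 to 26.0 in Control, and the other panels overlap between the groups.

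Among the tyrosine kinase receptors, Kdr (chromosome 5, 75932827 to 75978458, minus strand) measured 21.4, 20.9 and 22.4 FPKM in ISRIB, against 24.6, 25.0 and 26.0 FPKM in Control. All ISRIB libraries lay below all Control libraries. The mean was 21.6 ± 0.723 FPKM in ISRIB and 25.2 ± 0.687 FPKM in Control (SD, n = 3 each), a log2 difference of −0.22 (SE 0.0474). It stayed between −0.25 and −0.20 when single libraries were left out, and was −0.17 with the gene length trend removed and −0.27 after TPM rescaling. Flt1 had 1.62, 1.71 and 1.55 FPKM in ISRIB, against 2.11, 1.68 and 1.98 FPKM in Control. Control replicate 2 lay inside the ISRIB range, and the other Control libraries were above it. Its log2 difference was −0.19 (95% interval −0.43 to 0.06), and −0.26 without Control replicate 2. Gene-level values do not separate the membrane-bound from the secreted form of Flt1. Flt4, the receptor for VEGF-C, had 3.36, 4.18 and 3.97 FPKM in ISRIB, against 4.05, 4.53 and 4.22 FPKM in Control. The groups overlapped through ISRIB replicate 2, with a log2 difference of −0.14 (95% interval −0.35 to 0.08) that was −0.06 without ISRIB replicate 1.

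The neuropilins are the co-receptors. Nrp1 had 11.2, 10.7 and 10.6 FPKM in ISRIB, against 10.8, 11.6 and 11.4 FPKM in Control, with overlapping groups. Its log2 difference was −0.05 (95% interval −0.18 to 0.07), from −0.08 without Control replicate 1 to −0.03 without Control replicate 2, and 0.01 with the gene length trend removed. Nrp2 had 9.08, 7.78 and 8.24 FPKM in ISRIB, against 8.37, 9.30 and 9.01 FPKM in Control. ISRIB replicate 1 lay within the Control range and the other ISRIB libraries below it, with a log2 difference of −0.08 (95% interval −0.25 to 0.09). It was −0.14 without ISRIB replicate 1, −0.04 without ISRIB replicate 2 and −0.05 without Control replicate 2. Intervals that hold 0 do not show that a gene was alike in both groups. The median log2 difference of the 9 members was −0.08, beside 0.01 for all tested genes.

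**Figure D2:**
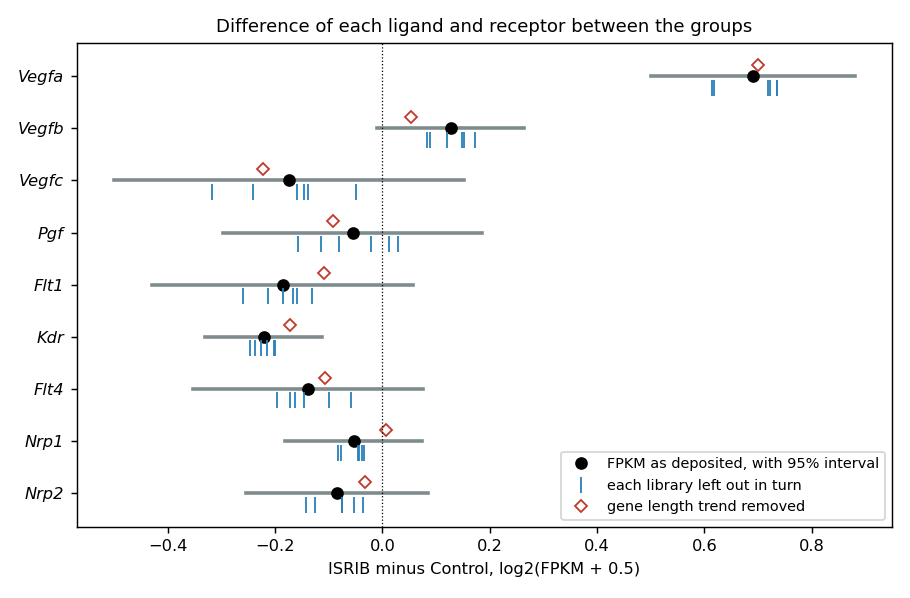
Difference of each gene between ISRIB and Control on the log2(FPKM + 0.5) scale (horizontal axis). Black points with grey bars are the differences with unadjusted 95% intervals from limma, blue ticks the values with each library left out, and red diamonds the values with the gene length trend removed. Vegfa stands at 0.69 and Kdr at −0.22, and the intervals of the other 7 genes hold 0. The genes were chosen with results of this contrast known, so the intervals are a description and no test.

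The order of FPKM levels was nearly shared by the groups. Vegfa was first and Vegfb second in both, each apart from the next gene in every library. Pgf and Kdr followed, at 24.0 and 21.6 FPKM in ISRIB and 25.0 and 25.2 FPKM in Control. These neighbours overlapped in both groups, so their order is not resolved. Below them came Nrp1, Nrp2, Flt4, Vegfc and Flt1, each apart from its neighbour within both groups. FPKM depends on the gene length used, and that length can be worked back from the table. It was 14100 bases for Flt1, where the longest GENCODE M21 transcript has 6895 bases, and 9855 bases for Nrp1, where the longest has 3645. Divided by the longest transcript instead, Flt1 came to 3.33 in ISRIB and 3.93 in Control, beside 3.63 in ISRIB and 4.03 in Control for Flt4. Nrp1 came to 29.3 in ISRIB and 30.4 in Control on that scale, next to 28.9 in ISRIB and 33.8 in Control for Kdr. The mean of Flt1 thus stayed below that of Flt4 in both groups. Their libraries overlapped on this scale in both groups, so their order is not resolved. Flt1 stood above Vegfc, which came to 1.99 in ISRIB and 2.32 in Control. Nrp1 stood below Kdr in Control. In ISRIB its mean was above that of Kdr, but their libraries overlapped, so their order there is not resolved. The last place of Flt1 and the gap between Nrp1 and Kdr therefore depend on the gene model. Length cancels in a ratio of FPKM between the groups but not on the log2(FPKM + 0.5) scale, where the difference of Flt1 was −0.22 with a pseudocount of 0.1. Mean FPKM placed Vegfa above 96.9% of the tested genes, Vegfb above 90.8%, Kdr above 75.7%, Vegfc above 16.3% and Flt1 above 8.60%.

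The balance among the ligands differed with Vegfa. Vegfa made up 64.0%, 60.9% and 64.4% of the summed FPKM of the 4 ligands in ISRIB, against 52.6%, 52.3% and 52.4% in Control. The Control libraries were nearly equal, since Control replicate 2, with the lowest Vegfa, also had the lowest Vegfb, Pgf and Vegfc. The sum of the other ligands was 72.8 to 83.0 FPKM in ISRIB and 68.9 to 80.5 FPKM in Control, and overlapped. The ratio of Vegfa to Kdr was 6.06, 6.05 and 6.72 in ISRIB, against 3.53, 3.02 and 3.42 in Control, as both parts of the ratio differed. The balance among the receptors overlapped between the groups. Kdr was 78.1% to 81.1% of the summed FPKM of the 3 tyrosine kinase receptors in ISRIB and 80.0% to 80.7% in Control, and the ratio of Flt1 to Kdr was 0.0756 ± 0.00619 in ISRIB and 0.0764 ± 0.00919 in Control (SD, n = 3 each).

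**Figure D3:**
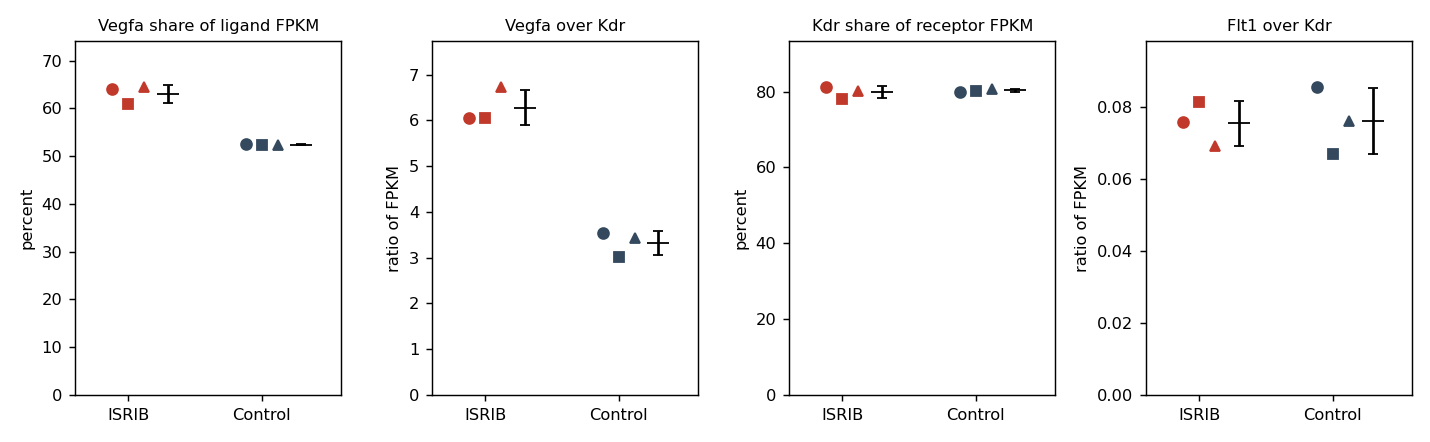
Shares and ratios of FPKM within each library (vertical axes from 0), with means ± SD. The Vegfa share of ligand FPKM is 60.9% to 64.4% in ISRIB and 52.3% to 52.6% in Control, and the ratio of Vegfa to Kdr is 6.05 to 6.72 in ISRIB and 3.02 to 3.53 in Control, while the Kdr share of the receptors and the ratio of Flt1 to Kdr overlap.

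In RNA from whole ovaries, fewer endothelial cells and less RNA per endothelial cell cannot be told apart, so the receptors were set beside endothelial markers that are not VEGF receptors. Of 25 such markers, all of them tested, 21 were lower in ISRIB and 4 higher, 9 lay entirely below Control in ISRIB and 0 entirely above. Over all tested genes 48.2% were lower, and 12% lay entirely below. None of the 25 passed the test, and their median log2 difference was −0.14. Cdh5, which codes for the adhesion protein of endothelial junctions, had 32.1, 37.2 and 35.6 FPKM in ISRIB, against 41.1, 41.6 and 44.3 FPKM in Control (log2 difference −0.27, limma adjusted p = 0.119). The surface receptor Cd93 had 16.2 ± 1.31 FPKM in ISRIB and 20.9 ± 0.751 FPKM in Control (n = 3 each, log2 difference −0.35, limma adjusted p = 0.0987, and 0.0317 with voom). The summed FPKM of the 25 markers ran from 433 to 511 in ISRIB and from 492 to 535 in Control, and none was at 0. The mean log2 level of the markers was 3.33, 3.57 and 3.57 in ISRIB, against 3.60, 3.60 and 3.69 in Control. ISRIB replicate 1 stood apart, and without it the difference was −0.06 in place of −0.14.

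Relative to that mean, Kdr stood at 1.12, 0.85 and 0.94 log2 units in ISRIB, against 1.05, 1.08 and 1.03 in Control. ISRIB replicate 1 was above and the other ISRIB libraries below all Control libraries, so the groups overlapped, with a mean difference of −0.09, and of −0.16 without ISRIB replicate 1. The other receptors also overlapped on this scale. Their differences were −0.05 for Flt1, −0.00 for Flt4, 0.08 for Nrp1 and 0.05 for Nrp2, each smaller than the pooled SD between replicates of 0.0733 to 0.179. The Kdr difference was likewise smaller than its pooled SD of 0.0966, and was −0.03 with the gene length trend removed. Leaving out single libraries turned the sign for the 4 receptors other than Kdr and kept it for Kdr (−0.16 to −0.03). Vegfa, set against the same markers, was at 3.59 in ISRIB and 2.76 in Control, without overlap. Pericytes and smooth muscle wrap vessels. Of 10 of their markers 7 were lower in ISRIB and 3 higher, 4 lay entirely below Control and 1 entirely above, beside 12% and 10.8% of all tested genes, with a median log2 difference of −0.19 and summed FPKM of 133 to 142 in ISRIB and 150.4 to 162 in Control. None was at 0. Pdgfrb, the pericyte receptor for PDGF-B, had 24.5 ± 0.763 FPKM in ISRIB and 30.9 ± 0.645 FPKM in Control (n = 3 each, log2 difference −0.33, limma adjusted p = 0.0799, and 0.0191 with voom). The part of these cell types in the lower Kdr was not tested.

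**Figure D4:**
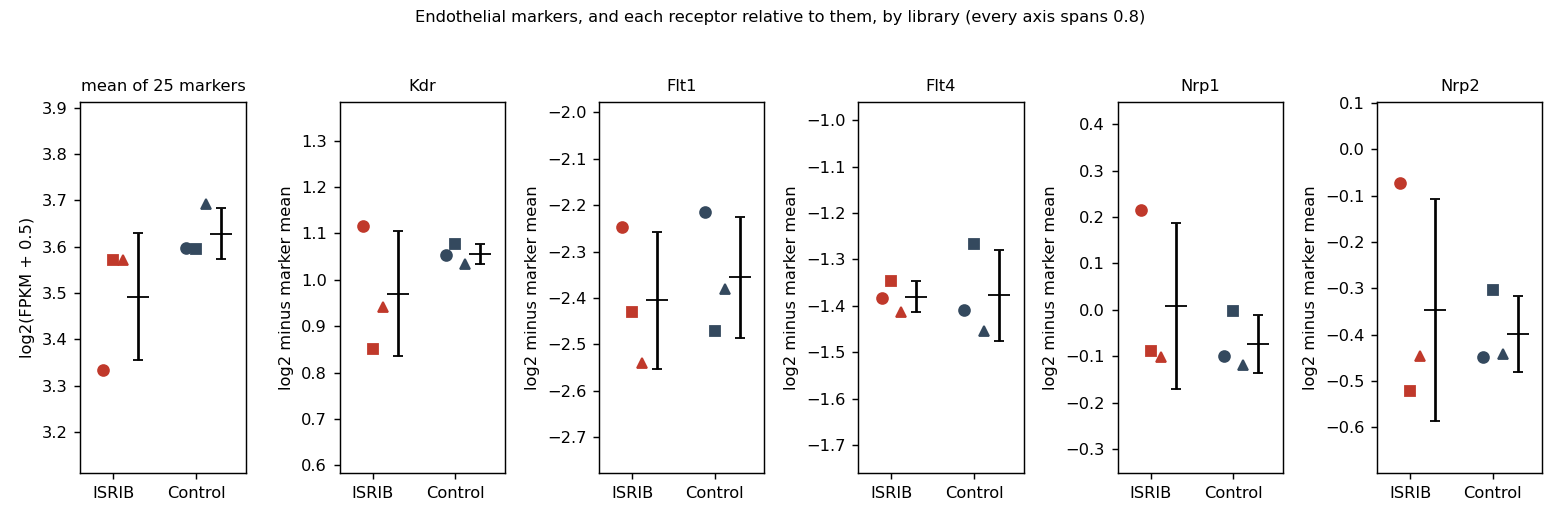
Left panel, mean log2(FPKM + 0.5) of 25 endothelial markers in each library; other panels, log2 level of each receptor minus that mean. Points are libraries, bars are means ± SD, and every vertical axis spans the same range without starting at 0. The marker mean of ISRIB replicate 1 is 3.33 where all other libraries lie at 3.57 to 3.69, and each receptor overlaps between the groups.

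Relays carry the signal inside the cell once a VEGF receptor is bound. Of 41 tested relays, 29 were lower in ISRIB and 12 higher, 0 passed in either direction, and the median log2 difference was −0.03. The 6 relays that lay entirely below Control, with 0 entirely above, are a share close to the 12% of all tested genes. Nos3, the endothelial nitric oxide synthase, had 12.6, 13.9 and 14.1 FPKM in ISRIB, against 16.6, 16.5 and 18.4 FPKM in Control (log2 difference −0.33, limma adjusted p = 0.0995, and 0.0494 with voom). Plcg2, a phospholipase C, had a log2 difference of −0.21. Of 18 genes that VEGF is known to induce or that mark endothelial tip cells, 12 were lower and 6 higher. Among them 5 lay entirely below and 1 entirely above, beside 12% and 10.8% of all tested genes. None passed, and the median was −0.16. Unc5b, a netrin receptor of tip cells, had 12.5, 12.6 and 13.5 FPKM in ISRIB, against 16.6, 17.2 and 18.2 FPKM in Control (log2 difference −0.42, limma adjusted p = 0.0799, and 0.0189 with voom). Notch1, a receptor in the choice between tip and stalk cells, had 8.70 ± 0.173 FPKM in ISRIB and 10.9 ± 0.464 FPKM in Control (n = 3 each, log2 difference −0.31, limma adjusted p = 0.0987, and 0.0259 with voom).

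The neuropilins share their semaphorin ligands with plexins. Of 13 semaphorin and plexin genes 8 were lower and 5 higher, 4 lay entirely below Control and 0 entirely above. Over all tested genes 12% lay entirely below and 10.8% entirely above. None of the 13 passed, and their median log2 difference was −0.08, and −0.04 with the gene length trend removed. The plexin gene Plxna1 had 26.8, 24.7 and 25.1 FPKM in ISRIB, against 31.3, 31.3 and 31.5 FPKM in Control (log2 difference −0.29, limma adjusted p = 0.0832, and 0.0259 with voom). Plxnd1, the plexin of endothelial cells, had 38.3 ± 1.44 FPKM in ISRIB and 46.1 ± 1.02 FPKM in Control (n = 3 each, log2 difference −0.26, limma adjusted p = 0.0876, and 0.0297 with voom). These differences were larger than those of Nrp1 and Nrp2 themselves, but Plxna1 and Plxnd1 were named for having the smallest p in their list. The difference between genes was not tested.

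Factors outside the cell that bind, process or hold back VEGF were lower in most cases. Of 17 tested, 12 were lower and 5 higher, 8 lay entirely below Control and 1 entirely above, and 0 passed. Over all tested genes 48.2% were lower, 12% lay entirely below and 10.8% entirely above. The median log2 difference of the 17 was −0.10, and −0.07 with the gene length trend removed. Timp3, a protease inhibitor that also blocks VEGF from VEGFR2, had 37.5, 38.7 and 36.6 FPKM in ISRIB, against 45.7, 44.3 and 41.8 FPKM in Control (log2 difference −0.22, limma adjusted p = 0.113). The heparan sulfate proteoglycan gene Hspg2 had a log2 difference of −0.25 (limma adjusted p = 0.119) and Vash1, an inhibitor of angiogenesis made by endothelial cells, of −0.29 (limma adjusted p = 0.127). Other vessel ligands went both ways, with 4 of 7 tested genes higher, 2 of them without overlap, 0 passing and a median of 0.17. Angpt2, which loosens vessels for sprouting, had 3.13, 2.85 and 4.87 FPKM in ISRIB, against 2.50, 2.05 and 2.63 FPKM in Control (log2 difference 0.48, limma adjusted p = 0.242). Pdgfd, a ligand of the PDGF receptors, had 5.84 ± 0.409 FPKM in ISRIB and 4.33 ± 0.173 FPKM in Control (n = 3 each, log2 difference 0.39, limma adjusted p = 0.0987).

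Vegfa is a target of HIF, and other HIF targets had differences of the same sign. Of 24 tested, 23 were higher in ISRIB and 1 lower, 19 lay entirely above Control and 0 entirely below, 0 passed, and the median log2 difference was 0.31. Over all tested genes 51.8% were higher, 10.8% lay entirely above and 12% entirely below. P4ha2, a collagen prolyl hydroxylase subunit, had 22.9, 20.7 and 22.6 FPKM in ISRIB, against 14.3, 12.1 and 14.9 FPKM in Control (log2 difference 0.67, limma adjusted p = 0.0618, and 0.0189 with voom). The mean log2 level of the 24 genes was 5.15, 4.99 and 5.13 in ISRIB, against 4.80, 4.70 and 4.85 in Control. Vegfa at 0.69 lay above that list's median. This list was chosen with the pattern already known and is no independent support for it. Factors that act on the Vegfa transcript or on HIF were split, with 12 of 22 higher and 10 lower, 4 entirely above Control and 1 entirely below, 0 passing and a median of 0.02, and −0.03 after TPM rescaling. Egln1, an oxygen-sensing prolyl hydroxylase that marks HIF for breakdown and is itself a HIF target, had 46.5, 44.5 and 48.8 FPKM in ISRIB, against 38.7, 35.0 and 41.0 FPKM in Control (log2 difference 0.28, limma adjusted p = 0.119). Egln3, of the same enzyme family, had a log2 difference of 0.35 (limma adjusted p = 0.226) and Hif1an, which hydroxylates HIF at another site, of −0.12 (limma adjusted p = 0.274).

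**Figure D5:**
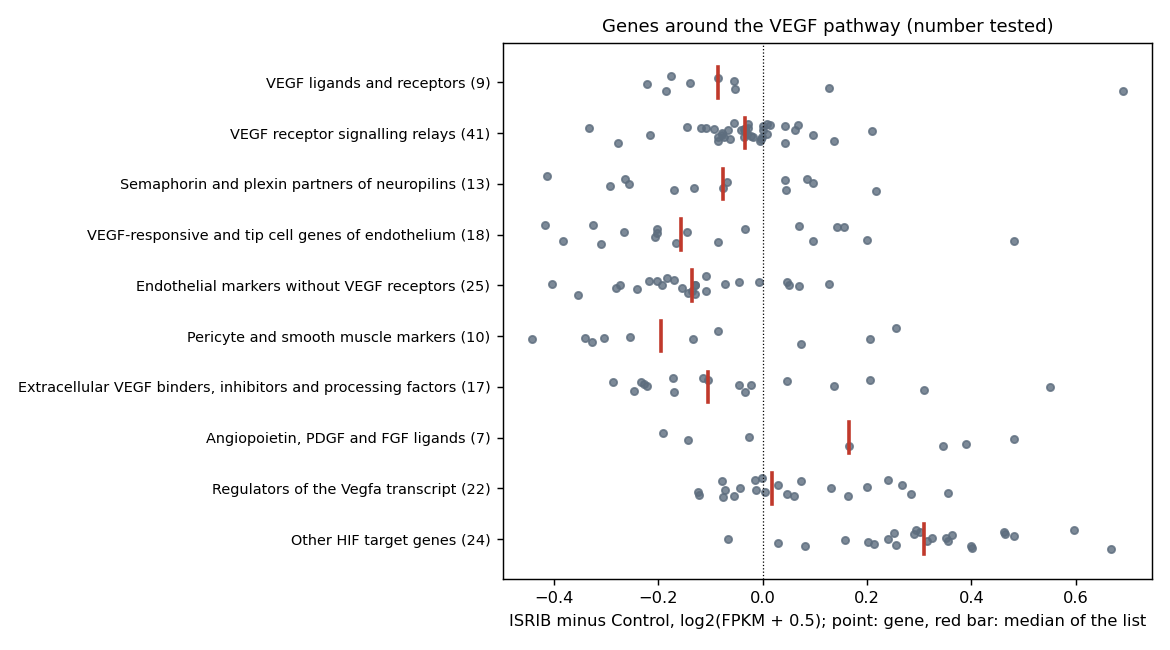
Differences between ISRIB and Control on the log2(FPKM + 0.5) scale (horizontal axis) for genes around the VEGF pathway, in rows by list with the number of tested genes. Each point is a gene and each red bar the list's median, which is 0.31 for other HIF targets, −0.08 for the VEGF ligands and receptors, −0.14 for endothelial markers and −0.19 for pericyte and smooth muscle markers; a few genes stand in more than 1 list.

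The genes whose course over the 6 libraries came nearest to that of Vegfa were found by the root mean square distance between log2(FPKM + 0.5) values, each taken from the gene's own mean. Of 12243 named genes compared, the 5 nearest were P4ha2, Gpx3, Ptpn5, Aif1 and Gas5, at distances of 0.0697 to 0.105, where Vegfa itself varied by 0.36 about its mean. Gpx3, a secreted glutathione peroxidase, had 78.2, 72.1 and 97.7 FPKM in ISRIB, against 45.9, 45.8 and 52.5 FPKM in Control, and like Vegfa was highest in ISRIB replicate 3 and Control replicate 3. Aif1, a macrophage gene, was at 1.69 ± 0.146 FPKM in ISRIB and 0.960 ± 0.108 FPKM in Control, so its reads are few. For Kdr the 5 nearest were Mecom, Arid1b, Raver2, Arid1a and Cbfa2t3, at distances of 0.0225 to 0.0290 beside a variation of 0.12 for Kdr itself. Mecom, a transcription factor, had 2.84 ± 0.152 FPKM in ISRIB and 3.35 ± 0.145 FPKM in Control, and Arid1b, a subunit of a chromatin remodelling complex, 15.0 ± 0.352 FPKM in ISRIB and 17.2 ± 0.108 FPKM in Control (SD, n = 3 each). With 6 libraries and 12243 genes some near profiles always occur, so these names are a description only.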

How the data were processed

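RNA of cultured mouse ovary was sequenced in 3 ISRIB and 3 Control libraries, grouped by sample title. The authors deposited FPKM per gene and library, 1 column per library. Tools named in the submitters' processing notes are HISAT2, HTSeq, fastp, DESeq2 and R 3.2.0, with build mm10 and no roles. No source used here gives the annotation, the strand setting or the library total behind the FPKM; without strand, a gene cannot be separated from an antisense partner.

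Whole reads and gene lengths were worked back from the FPKM (100% of genes whole within 0.01 read), with totals of 34474821 to 38002135 reads per library. Genes with a mean of at least 1 FPKM were tested as log2(FPKM + 0.5) with limma 3.58.1 in R 4.3.3 (empirical Bayes with intensity trend; two-sided p-values, adjusted by Benjamini-Hochberg and called under 0.05). That scale understates differences of low genes. Tables and figures used Python 3.11.15 with pandas 2.3.3 and matplotlib 3.10.9. Recovery and fit were tested on simulated data. No pair of replicates was a single library deposited again, as their reads differed beyond sampling noise (chi-square per gene 7.76 to 18.7). Positions come from GENCODE M21, on GRCm38 as mm10 is, and promoters from RefSeq, where all 9 genes matched by symbol.

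Members and gene lists were chosen with earlier results of these data known. Genes named from a list are among its 4 tested genes with the smallest p, and the nearest profiles were the 5 smallest distances, leaving out predicted and clone-named genes. One gene that this rule names is not reported here. Alternatives changed the pseudocount, the filter on low values, the scaling, the empirical Bayes trend, a block for the replicate number and the gene length trend, left out each library, or used voom on the recovered reads.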

Additional observations from a re-analysis of the deposited data

How the results depend on the processing

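The count of genes past the test was 0 in the main fit and 0 with pseudocounts of 0.1 or 1, no filter, quantile normalization, median-of-ratios scaling, a fit with no intensity trend, the gene length trend removed, and each library left out (0 to 0). It was 8 with a mean of at least 5 FPKM, 19 after TPM rescaling, 11 with the replicate number as a block and 120 with voom on the recovered reads; the cause was not tested. Same-numbered libraries had correlations of their deviations from the group mean of −0.19, −0.09 and 0.19, and ISRIB replicate 1 went best with Control replicate 2 (0.35). Such deviations sum to 0 within a group, so the correlations are tied to each other. They cannot exclude that the replicate numbers pair the libraries. Of the 9 members, 2 did not overlap between the groups in the main values, 5 after TPM rescaling (26.5% of all tested genes there), and 2 to 5 when single libraries were left out (30.3% to 37.9% of all genes), where fewer libraries make overlap less likely by construction. Vegfa and Kdr were among them in every setting run. Most settings could not change this. Groups that are apart stay apart when a library is left out. Pseudocounts, filters, the intensity trend and the replicate block keep the order of the values. Only the scalings, voom and removal of the gene length trend could have made these genes overlap, and they did not. Vegfa, Vegfb, Vegfc, Flt1, Kdr, Flt4 and Nrp2 kept the sign of their difference in all alternatives run for them, Pgf in 14 of 16 and Nrp1 in 15 of 16. These counts include the changed filters and the replicate block, which return the main difference by construction and so could not turn a sign. Depth limits Vegfc and Vegfd most, with 164 and 86 reads in their thinnest libraries. Intervals on reads would cover counting error only.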

Other observations

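Lymphatic markers, which bear on Vegfc and Flt4, went both ways. Of 8 such markers, 5 had a mean of at least 1 FPKM and were tested. Among these 5, 2 were higher and 3 lower in ISRIB, and 0 were without overlap, beside 22.8% of all tested genes. Their median log2 difference was −0.09. Ccl21a, a chemokine of lymphatic endothelium, had 7.93 ± 2.25 FPKM in ISRIB and 4.99 ± 1.71 FPKM in Control, and Prox1, the transcription factor of lymphatic identity, 1.52 ± 0.336 FPKM in ISRIB and 1.89 ± 0.127 FPKM in Control (SD, n = 3 each). Red cell genes varied more than any VEGF gene between ISRIB libraries. Their summed FPKM was 328, 75.9 and 72.4 in ISRIB and 40.5 to 75.3 in Control, and Hbb-bs, a beta-globin gene whose reads are uncertain because of a near-identical copy, had 57.9 ± 60.9 FPKM in ISRIB and 13.8 ± 3.25 FPKM in Control. Leukocyte markers, among them macrophage genes whose cells can also carry Flt1 and Nrp1, went both ways. Of 5 tested, 2 were higher and 3 lower, and 2 lay entirely below Control, beside 12% of all tested genes. None passed, and the median log2 difference was −0.06. The macrophage receptor gene Csf1r had 3.45 ± 0.139 FPKM in ISRIB and 4.56 ± 0.223 FPKM in Control (limma adjusted p = 0.101), the complement gene C1qa had a log2 difference of −0.06 and the lysozyme gene Lyz2 of 0.07, the last 2 with overlapping groups.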
